A study of Mus musculus with 8 samples.

Results

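The integrated stress response was examined through 10 of the 17597 genes measured: the transcription factor gene Atf4, its relative Atf5, the known ATF4 targets Ddit3, Trib3, Chac1, Asns, Sesn2, Ddit4 and Ppp1r15a, and the stress regulator Crebrf. The genes were picked by name. Crebrf was selected on its fold change and p in this same comparison, so its values, and those of the genes set beside it, are given as a description. Total RNA was sequenced from 8 libraries of mouse embryonic stem cells (mES cells) of a Cast x 129S background, in 2 groups of 4. All cells carried METTL3, the enzyme that writes N6-methyladenosine (m6A), fused to the FKBP12F36V degron, through which the small molecule dTAG-13 has the fusion protein degraded. One group was given dTAG-13 over 26 h and the other none, and clones C3 and H5 gave 2 libraries each to either group. In both groups the Xist promoter of 1 allele had been replaced with a TetOn promoter (the labels give the 129S allele, whereas the study's text gives the Cast allele for these lines), no doxycycline was given, and the cells grew with serum and LIF on inactivated fibroblast feeders. The cells are thus a model built on 2 edited clones, and default TEtranscripts settings hold no term for clone.

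In the integrated stress response, kinases that sense amino acid shortage, misfolded protein, haem shortage or double-stranded RNA phosphorylate the initiation factor eIF2. General translation slows, while translation of Atf4 and Atf5 mRNA rises through their upstream reading frames, so the pathway can be active with little change in Atf4 RNA. The ATF4 protein then raises transcription of genes for amino acid supply, redox balance and, under lasting stress, cell death. CREBRF is a nuclear regulator that binds the stress factor CREB3 and promotes its loss.

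Values were available as the comparison of both groups for each gene, with the mean over all libraries and no value for any single library. Mean counts are read counts divided by size factors. Fold changes are on the log2 scale with their standard error (SE), and the threshold was an adjusted p (DESeq2 Wald test, n = 4 per group) under 0.05. Positive values were taken as higher with dTAG-13. That reading follows the order in which TEtranscripts takes its groups and is uncertain, and an inverted contrast would turn every direction given here. The labels call the RNA total RNA, as do the study's methods, although their extraction text describes chromatin RNA. Mean counts of all genes added up to 14573411, of which the 10 genes held 9675.6. All 12 pluripotent stem cell markers averaged 967 counts or more, with a sum of 70104, 1 higher (Fgf4, 0.22) and 2 lower (Tdgf1, -0.35, and Dppa5a, -0.40). The 18 fibroblast feeder markers summed to 13218 and averaged from 0.768 to 4941 counts, so the sum rests mostly on the abundant ones. Of the 18, 1 was higher (Col5a1, 0.52) and 1 lower (Vim, -1.002), and 4 averaged under 10 counts. The 10 markers of differentiated lineages summed to 319, with Foxa2 higher (1.23) and T lower (-0.89). The part of these markers in the results below was not tested, and in bulk RNA fewer cells of a type and less RNA per cell cannot be told apart.

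Crebrf was lower after METTL3 depletion, while of the other 9 genes 1 was past the threshold, in the opposite direction. Crebrf (ENSMUSG00000048249.14, chromosome 17, 26715650 to 26776635, GRCm38, the build of mm10) averaged 665 counts, with a log2 fold change of -1.28 (SE 0.12, 95% interval -1.52 to -1.04) and an adjusted p of 4.01e-22 (DESeq2 Wald test). With 4 libraries per group, these values place its mean at about 942 in untreated cells and 388 with dTAG-13, that is 41.2% of the untreated level (95% interval of the fold 0.348 to 0.486). These values rest on the direction read above, and under an inverted contrast Crebrf would be 2.43-fold higher with dTAG-13 (2.06 to 2.87). Of the 10 genes, 1 was higher and 1 lower past the threshold, against 20.0% of all genes in either direction, 10.7% higher and 9.35% lower. Because Crebrf was chosen from this contrast, nothing is read from that count. Every call, that of Crebrf included, needs the normal reference of the Wald test. With a t distribution of 6 degrees of freedom the adjusted p of Crebrf was 0.0664. That setting called 0 genes against 3526 as deposited, so it does not set Crebrf apart from other calls. Its 6 degrees of freedom count libraries alone, whereas DESeq2 shares estimates of spread across genes, so it is the stricter reference. The gene that was higher was Trib3, which encodes a pseudokinase that is induced by ATF4 and dampens it. The median of the 10 genes was 0.02, and 5 lay above 0 and 5 below, beside a median of 0.02 over all genes. Without Crebrf the other 9 genes ranged from -0.40 to 0.58.

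**Figure D1:**
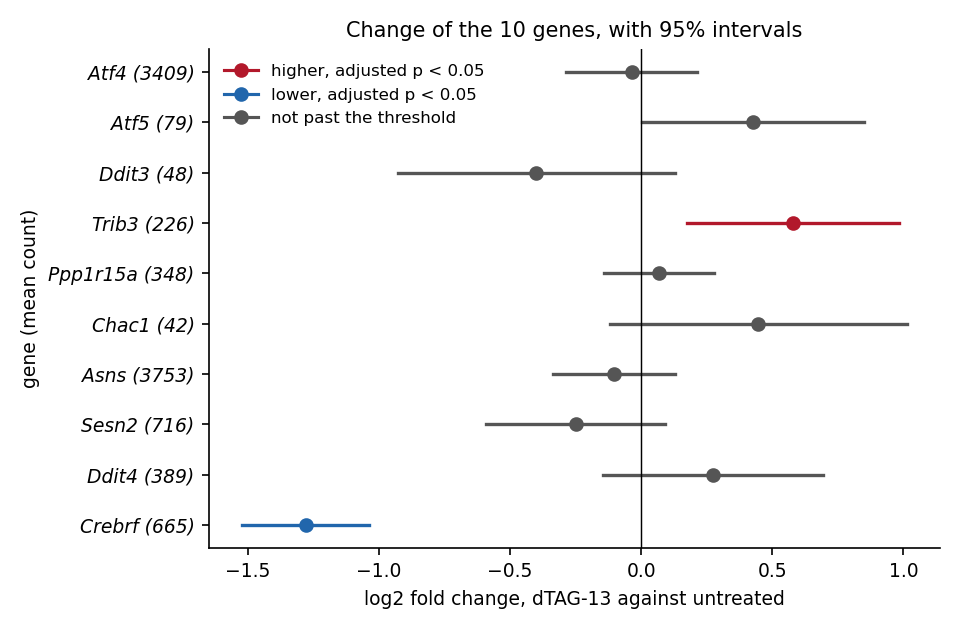
Log2 fold change (dTAG-13 against untreated) of the 10 genes, with 95% intervals as horizontal lines and the mean count in brackets. Crebrf lies at -1.28 with an interval from -1.52 to -1.04, Trib3 at 0.58 from 0.17 to 0.98, and of the others only the interval of Atf5 leaves out 0, by a small margin.

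Crebrf ranked 7th by p of the 17597 genes. Among the 9899 genes averaging 100 counts or more, the median size of a change was 0.22 on the log2 scale in either direction, and 10 genes had a log2 fold change below that of Crebrf. Its SE was ordinary for its abundance, at percentile 42.0 of the 2580 genes whose abundance lay within 1.5-fold. The nearest genes on chromosome 17 had smaller changes, as most genes did. Since Crebrf was chosen on its change, nothing is read from that. The 6 closest that averaged 10 counts or more, 3 on each side, had log2 fold changes between -0.25 and 0.39, and 1 of them was past the threshold, Ergic1 at -0.25 (adjusted p = 0.0233, DESeq2 Wald test). Bnip1, which starts 4.43 kb downstream of Crebrf, had a log2 fold change of 0.39 (SE 0.18), and Atp6v0e, upstream, of 0.046 (SE 0.14). These neighbours were chosen by position. No annotated gene overlaps Crebrf.

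The Crebrf transcript has a form that sets it apart from the other 9 genes. It has 9 exons in 7462 bases, with a longest internal exon of 1090 bases (94.7th percentile of the 13487 genes averaging 10 counts or more with an annotated transcript) and a last exon of 5344 bases (95.9th percentile). METTL3 and its partners place m6A mostly in long internal exons and in last exons, in a short consensus of which GGACT is the best known form. GGACT occurred 7 times in the Crebrf transcript, 0.938 per kb against a median of 1.05 per kb over genes, the 43.0th percentile, so the motif was about as dense there as in other transcripts. At least 1 GGACT was found in all 10 transcripts and in 91.7% of the background genes. The 7 windows of 21 bases are the places where GGACT stands in the gene of the 10 that changed most, with GGACT in capitals. Other forms of this enzyme's consensus were not searched. The windows were read from the GENCODE vM21 transcript ENSMUST00000062519.13 on the plus strand of GRCm38. A match is a description of the letters, and m6A was not measured in these libraries.
Crebrf window 1, chr17:26736942-26736962: ttggaattGGACTcacaggat
Crebrf window 2, chr17:26742333-26742353: aatagtgaGGACTctcagtct
Crebrf window 3, chr17:26757819-26757839: tctgtagaGGACTtgaaggag
Crebrf window 4, chr17:26771370-26771390: gccttgtaGGACTaaggatac
Crebrf window 5, chr17:26772144-26772164: tgtatataGGACTatgtcaaa
Crebrf window 6, chr17:26774041-26774061: taaccaggGGACTctgtggca
Crebrf window 7, chr17:26776032-26776052: cagaagcgGGACTgattctgt

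Window 1 lies in the 5' UTR in exon 2, windows 2 and 3 in coding exons 4 and 5, and the other 4 in exon 9, the last. Window 4 is coding, its GGACT beginning 27 bases before the stop codon, and windows 5 to 7 lie in the 3' UTR, 747, 2644 and 4635 bases after the start of the stop codon.

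Genes with exons as long had medians near 0. Over all 13487 genes of this background, 13.5% were higher and 12.0% lower past the threshold, with a median of -0.01. Of 709 genes with an internal exon at least as long, 116 (16.4%) were higher and 51 (7.19%) lower past the threshold, with a median log2 fold change of 0.04. Among 557 genes with a last exon at least as long, 65 were higher and 65 lower, with a median of -0.08. Of all 13487 genes 36 had a log2 fold change below that of Crebrf, and no gene of either group did. With so few in all, and Crebrf chosen on its change, nothing is read from that absence. The GC content of Crebrf was low, at 39.1%, the 2.85th percentile. For the 385 genes with a GC content at or under it the median was -0.20, and 19 were higher and 86 lower (22.3%). None of them lay below Crebrf, from which again nothing is read. With the trend over GC content removed, Crebrf had a log2 fold change of -1.10.

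**Figure D2:**
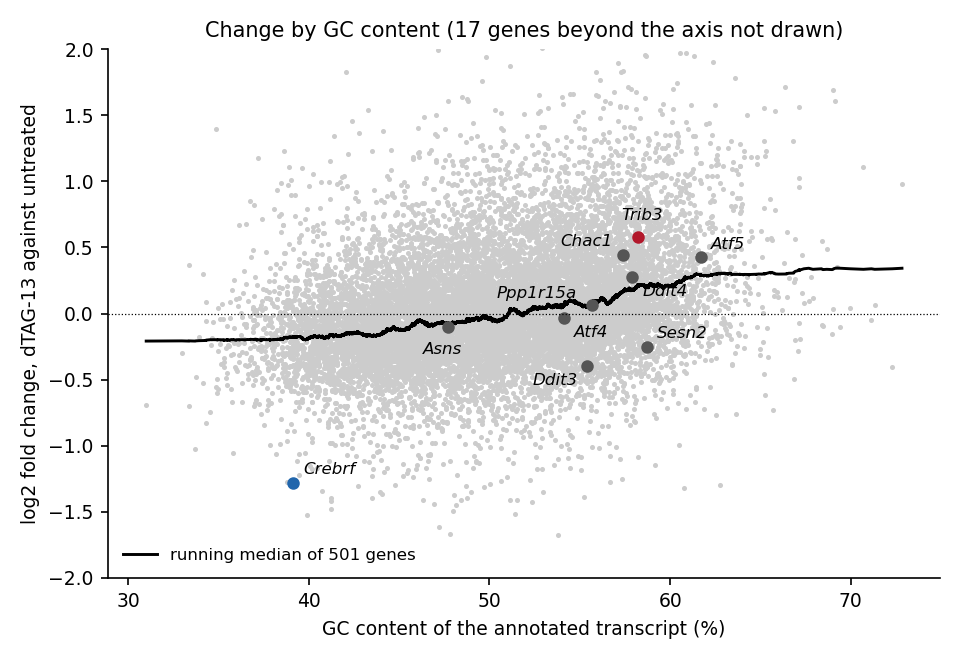
Log2 fold change against the GC content of the annotated transcript (percent) for genes averaging 10 counts or more (grey), with the running median over genes as a line and the 10 genes named. Trib3 is drawn in red as higher, Crebrf in blue as lower and the other 8 in dark grey. The line rises with GC content, and Crebrf lies far below it while Trib3 lies above it by 0.37.

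Atf4 and Asns were the abundant members, and neither was past the threshold. Levels were compared in TPM, computed here from the mean counts and the length of 1 annotated transcript per gene. On that scale Atf4 stood at 303 and Asns, which encodes the enzyme that makes asparagine, at 286, at percentiles 95.4 and 95.2 of the 13487 genes. Then came Ddit4 at 34.0, Sesn2 at 31.6, Ppp1r15a at 19.0, Trib3 at 17.1, Crebrf at 13.7, Ddit3 at 8.28, Atf5 at 6.69 and Chac1 at 3.93. Without values per library, neighbours in that order cannot be told apart beyond their spread. Atf4 (chromosome 15, 80255184 to 80257541) averaged 3409 counts, with a log2 fold change of -0.037 (SE 0.13), and its 95% interval spanned a fold of 0.820 to 1.16. Asns (chromosome 6, 7675169 to 7693254) averaged 3753 counts, with a log2 fold change of -0.10 (SE 0.12), with an interval from 0.793-fold to 1.10-fold. Changes of RNA level larger than those bounds were thus outside the intervals of both genes. Translation of Atf4 was not measured.

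Trib3 (chromosome 2, 152337422 to 152344032) was higher, averaging 226 counts with a log2 fold change of 0.58 (SE 0.21, 95% interval 0.17 to 0.98) and an adjusted p of 0.0302 (DESeq2 Wald test), which corresponds to means of about 181 in untreated cells and 271 with dTAG-13. Its transcript is 58.2% GC (89.1st percentile), and the call was lost with the GC trend removed, where the log2 fold change was 0.37 (adjusted p = 0.229). It was also lost with the t distribution (adjusted p = 0.187), as was every other call. The part of GC content in the Trib3 value was not tested further. Of the 1464 genes with a GC content at or over that of Trib3, 25.8% were higher and 2.73% lower past the threshold, against 13.5% and 12.0% of the 13487 genes. Trib3 has 4 exons, and of the 2608 genes with 2 to 4 exons 21.5% were higher and 7.40% lower. The part of exon number was not tested. The 6 nearest genes around Trib3 on chromosome 2 ranged from -0.40 to 0.20, and 1 was lower past the threshold (Csnk2a1). Its SE was at the 82.3rd percentile of genes of similar abundance.

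Ddit3 (chromosome 10, 127290774 to 127296288) encodes CHOP, the factor through which lasting stress leads to cell death. It was rare, averaging 48.1 counts, and had a log2 fold change of -0.40 (SE 0.27, 95% interval -0.93 to 0.13). Chac1 (chromosome 2, 119351229 to 119354381), which encodes an enzyme that breaks down glutathione, averaged 42.0 counts, with a log2 fold change of 0.45 (SE 0.29, interval -0.12 to 1.01). Atf5 (chromosome 7, 44812256 to 44816658), another stress factor translated like ATF4, averaged 79.2 counts, with a log2 fold change of 0.43 (SE 0.22, unadjusted p = 0.0475, adjusted p = 0.163 in the DESeq2 Wald test). These 3 genes averaged under 100 counts and had intervals wide enough to hold changes of over 1.5-fold: up to 1.80-fold higher for Atf5, 2.02-fold higher for Chac1 and 1.90-fold lower for Ddit3. Atf5 also overlaps Nup62 on the opposite strand over 571 bases of the gene spans. Nup62 averaged 3398 counts and was higher at 0.42 (adjusted p = 0.00178, DESeq2 Wald test), and because it is uncertain whether the counting of these stranded libraries used strand, its part in the Atf5 value cannot be told apart. The end of Ddit3 overlaps that of Mars over 68 bases, also on the opposite strand.

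Ppp1r15a, Sesn2 and Ddit4, which act on eIF2 phosphorylation or on growth signalling, were not past the threshold. Ppp1r15a (chromosome 7, 45522916 to 45526268) encodes GADD34, the phosphatase subunit that reverses eIF2 phosphorylation. It averaged 348 counts, with a log2 fold change of 0.067 (SE 0.11), measured more tightly than most genes of its abundance (SE at the 3.79th percentile), and the interval ran from 0.906-fold to 1.21-fold. Its sign turned, to -0.02, with the GC trend removed. Ppp1r15a overlaps Tulp2 on the opposite strand over 717 bases of the gene spans, and Tulp2 averaged 34.4 counts. Sesn2 (chromosome 4, 132492032 to 132510501) and Ddit4 (chromosome 10, 59949669 to 59951834) each encode an inhibitor of the growth kinase mTORC1. Sesn2 averaged 716 counts, with a log2 fold change of -0.25 (SE 0.17), and Ddit4 389 counts, with a log2 fold change of 0.27 (SE 0.21). Their SEs were at the 84.1st and 90.1st percentiles of genes of similar abundance, so both were measured less tightly than most. With the GC trend removed, Ddit4 had a log2 fold change of 0.09 and Sesn2 of -0.45. Sesn2 was then just short of the threshold (adjusted p = 0.0510, Wald test). Sesn2 shares 6089 bases with Gm12981, annotated on the same strand, whose reads counting by strand could not set apart from it.

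**Figure D3:**
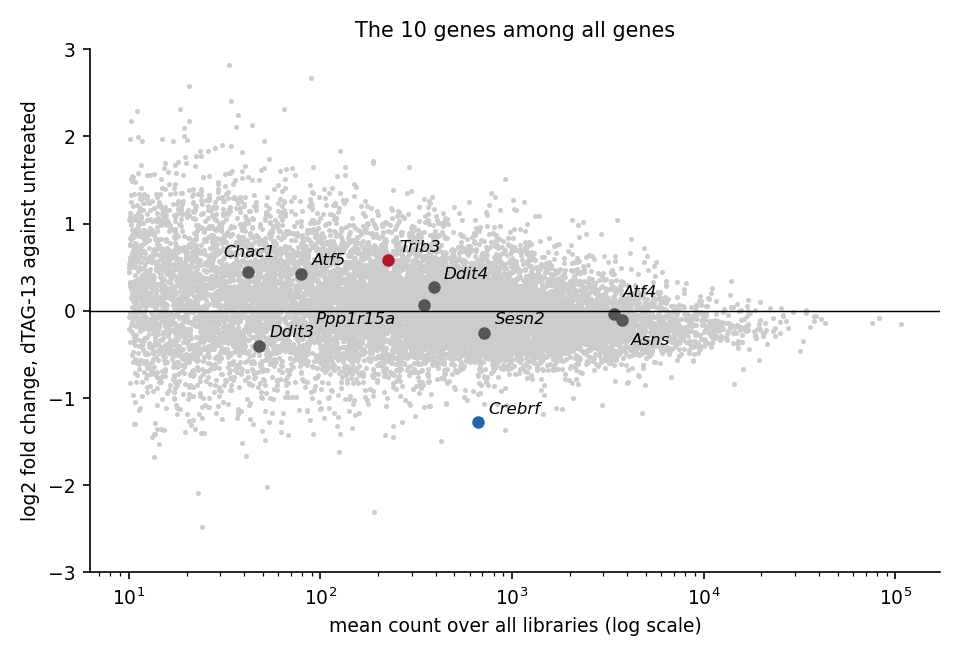
Log2 fold change (dTAG-13 against untreated) against the mean count over all libraries (log scale) for genes averaging 10 counts or more (grey), with the 10 genes named. Trib3 is drawn in red as higher, Crebrf in blue as lower and the other 8 in dark grey. Crebrf lies at the lower edge of the cloud at its mean count of 665, and the other 9 genes lie within it.

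ATF4 acts through a composite element in its targets whose core reads TGATGNAA, and ATF and CREB factors bind the palindrome TGACGTCA. Both motifs were searched on both strands in the promoters of RefSeq (GRCm38.p6), 250 bases before to 50 bases after each start. A promoter was listed for all 10 genes, 11 in all since Atf5 has 2. TGATGNAA was found in 3 of the 10 genes (Asns, Chac1 and Trib3) and in 3.97% of all 32851 promoters, and TGACGTCA in 1 (Ppp1r15a) and in 1.79% of all promoters. The matches did not overlap each other. The 4 promoters with a match are shown in full, 5' to 3' on the strand of the gene, with the match in capitals, and Crebrf beside them as the gene of the 10 that changed most.
Asns promoter, chr6:7693160-7693459, minus strand: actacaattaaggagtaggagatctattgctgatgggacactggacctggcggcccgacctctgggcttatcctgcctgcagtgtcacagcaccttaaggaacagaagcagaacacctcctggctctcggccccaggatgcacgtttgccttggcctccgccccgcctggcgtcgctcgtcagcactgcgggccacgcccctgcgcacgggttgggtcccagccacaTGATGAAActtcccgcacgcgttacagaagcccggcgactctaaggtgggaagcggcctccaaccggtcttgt
Chac1 promoter, chr2:119350992-119351291, plus strand: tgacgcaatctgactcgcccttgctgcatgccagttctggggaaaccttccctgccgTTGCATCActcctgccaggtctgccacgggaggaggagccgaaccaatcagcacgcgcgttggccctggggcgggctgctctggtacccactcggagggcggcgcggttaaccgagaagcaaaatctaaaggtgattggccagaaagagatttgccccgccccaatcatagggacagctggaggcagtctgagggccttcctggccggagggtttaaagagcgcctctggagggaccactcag
Trib3 promoter, chr2:152344011-152344310, minus strand: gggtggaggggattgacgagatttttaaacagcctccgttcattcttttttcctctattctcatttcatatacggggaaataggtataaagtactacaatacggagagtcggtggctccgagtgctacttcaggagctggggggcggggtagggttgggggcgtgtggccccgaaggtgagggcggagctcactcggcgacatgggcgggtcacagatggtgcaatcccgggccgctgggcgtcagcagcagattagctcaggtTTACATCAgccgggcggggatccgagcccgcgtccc
Ppp1r15a promoter, chr7:45526219-45526518, minus strand: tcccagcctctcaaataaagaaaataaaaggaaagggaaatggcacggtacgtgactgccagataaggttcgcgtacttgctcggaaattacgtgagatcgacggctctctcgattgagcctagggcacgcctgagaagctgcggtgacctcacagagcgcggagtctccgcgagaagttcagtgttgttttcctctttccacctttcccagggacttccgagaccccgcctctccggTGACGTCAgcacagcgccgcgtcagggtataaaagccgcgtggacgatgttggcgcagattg
Crebrf promoter, chr17:26715400-26715699, plus strand: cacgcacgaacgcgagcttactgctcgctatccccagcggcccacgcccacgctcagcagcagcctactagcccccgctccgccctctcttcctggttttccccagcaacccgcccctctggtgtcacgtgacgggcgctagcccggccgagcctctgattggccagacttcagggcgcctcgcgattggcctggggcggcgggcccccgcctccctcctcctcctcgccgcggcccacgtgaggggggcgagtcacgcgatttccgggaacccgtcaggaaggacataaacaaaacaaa

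The match in Asns begins 23 bases before the start and reads forward, and that in Chac1 begins 193 bases before the start on the other strand. In Trib3 it lies within the first bases of the transcript, from base 15, also on the other strand, and in Ppp1r15a the palindrome begins 12 bases before the start. The 3 genes with TGATGNAA in this window had log2 fold changes of -0.10 (Asns), 0.45 (Chac1) and 0.58 (Trib3), of which Trib3 alone was past the threshold. Crebrf had neither motif, which says only that these letters are not in this window.

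Beyond the 10 genes, 8 lists of the pathway were read, 132 further genes in all. Of these 17 (12.9%) were higher and 17 (12.9%) lower past the threshold, 25.8% in all, against 20.0% of all 17597 genes (10.7% higher and 9.35% lower). Among the 13487 genes averaging 10 counts or more, 13.5% were higher and 12.0% lower, and the lists were not filtered in that way. The median of the 132 genes was -0.09. The shares over all genes stand beside the counts of each list below, and the lists are small.

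Upstream of ATF4, the 12 eIF2 kinases, phosphatase subunits and their regulators had 2 genes higher, 1 lower and 9 not past the threshold. Nck1, an adaptor that also acts on eIF2 phosphorylation, was higher at 0.90 (SE 0.089, mean count 796, adjusted p = 6.97e-21 in the DESeq2 Wald test). Impact, which restrains the kinase GCN2, was lower at -0.62 (mean count 4820), and Eif2ak4, which encodes GCN2, was higher at 0.27. Of the 8 subunits of eIF2 and of its exchange factor eIF2B, 3 were lower (Eif2b3 at -0.43, Eif2s2 at -0.31 and Eif2s1 at -0.29) and none higher, with a median of -0.27.

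Among 18 basic leucine zipper factors that pair with ATF4 or are related to it or to CREB3, 6 were higher, 1 lower and 11 not past the threshold, with a median of -0.06. Over all genes 10.7% were higher and 9.35% lower. The 4 with the smallest p were Atf3 (0.94, SE 0.22), Cebpb (0.96, SE 0.26), Batf (1.59, SE 0.44) and Nfe2l2 (0.33, SE 0.094). The first 3 were rare, Atf3 averaging 59.8 counts, Cebpb 48.2 and Batf fewer. Of 7 paralogues of the members, Ddit4l, the relative of Ddit4, was higher at 0.65 (adjusted p = 0.000852, DESeq2 Wald test), and the other 6 were not past the threshold.

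Targets of ATF4 went both ways. In the 23 genes of amino acid supply, 5 were higher, 2 lower and 16 not past the threshold, with a median of 0.05. Slc7a3, which encodes a carrier of cationic amino acids, was lower at -0.73 (mean count 4559, adjusted p = 1.41e-07 in the DESeq2 Wald test), and Mthfd1l, of mitochondrial folate metabolism, at -0.31. Higher were Slc7a5, a carrier of large neutral amino acids, at 0.29, and Slc1a4, a carrier of small neutral ones, at 0.61. Of 22 other targets in the table, 2 were higher, 3 lower and 17 not past the threshold, with a median of 0.10. Vegfa, a growth factor for blood vessels, was higher at 0.69 and Pck2, a mitochondrial enzyme that makes phosphoenolpyruvate, at 0.51, while Atg12, of autophagy, was lower at -0.56 and Xpot, a tRNA exporter, at -0.27.

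**Figure D4:**
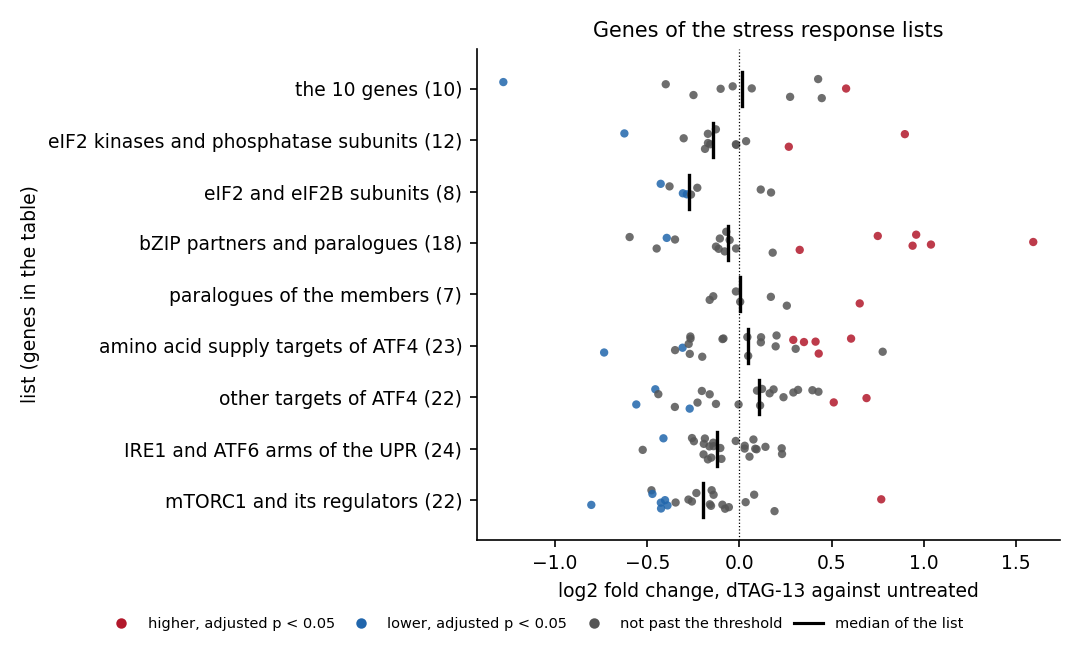
Log2 fold changes (dTAG-13 against untreated) of the genes of the 10-gene set and of the 8 pathway lists, 1 point per gene, with red for higher, blue for lower and grey for not past the threshold, and the median of each list as a bar. All medians lie between -0.27 (subunits of eIF2 and eIF2B) and 0.10 (other targets of ATF4), and Crebrf is the lowest point of the plot.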

How the data were processed

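Total RNA-seq of mES cells was available as 1 table of 18694 features, 17597 of them genes. The authors removed rRNA reads with bowtie2, aligned the rest with STAR to mm10 masked at strain variants, kept unique alignments, removed duplicates with Picard and compared the groups with TEtranscripts (DESeq2) at default settings. The deposited signal is the mean of counts over size factors. From 1 fit by the authors over the 8 libraries come the deposited log2 fold change of each feature with its standard error, a deposited score (the Wald statistic), and the p-values deposited raw and adjusted. Nothing was refitted, and values per library were not analysed here. In all 18694 features the statistic, p and Benjamini-Hochberg value followed from the other columns to 6 digits.

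Intervals (95%), group means and levels per kb were computed here with Python 3.11.15, numpy 2.4.6, pandas 2.3.3 and scipy 1.17.1. Group means assume 4 libraries per group and are approximate. Symbols were matched to GENCODE vM21 (GRCm38), 16686 directly and 724 through an older symbol, with 1 transcript per gene (protein-coding, principal by APPRIS, then longest). The scripts were tested on simulated data, and the alternatives were then run on the deposited table. P-values rest on the spread between these libraries, which are 2 clones with 2 replicates each per group, in a fit without a term for clone. They do not measure how the change would vary between further clones. Named genes are the 10 members and, per list, at most the 4 with the smallest adjusted p under 0.05. The members, lists and alternatives were chosen with earlier results of these data known.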

Additional observations from a re-analysis of the deposited data

How the results depend on the processing

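Of 60 values of single genes under 6 alternatives, 55 kept their direction and their side of the threshold. Only re-centring and removal of the GC trend can move a fold change, so under the others the direction was fixed in advance. Ppp1r15a changed sign with the GC trend removed (-0.019). Of the 10 genes, 2 were past the threshold with adjustment over genes alone, with a minimum mean count of 10 and after re-centring on the gene median (the median of -0.01 over genes averaging 10 counts or more was subtracted). With the GC trend removed 1 of the 10 was called, Crebrf. In a test against a change of 1.5-fold 1 was called, also Crebrf, with 74 genes in all (57 higher and 17 lower) and 0 of the 132 genes of the pathway lists. Referring the statistic to a t distribution with 6 degrees of freedom left 0 of the 10, 0 of all genes and 0 of the pathway genes past the threshold. The adjusted p was then 0.0664 for Crebrf and 0.187 for Trib3. Since no call at all passes that reference, it does not tell 1 gene from another. At an unadjusted p under 0.05 that reference counted 2 of the 10, 3876 genes and 38 pathway genes, against 5350 genes by the DESeq2 Wald test. The log2 fold change of Crebrf was -1.27 after re-centring and -1.10 with the GC trend removed, beside -1.28 as deposited. No paired analysis was possible because the table holds no values per library, and leaving out a replicate was not run for the same reason. Ddit3, Chac1 and Atf5 had mean counts under 100 and wide intervals, and the part of depth in this was not tested.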

Other observations

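Genes of neighbouring stress and growth pathways were also read, beside 10.7% of all genes higher and 9.35% lower past the threshold. In the IRE1 and ATF6 arms of the unfolded protein response, which answer misfolded protein in the endoplasmic reticulum beside the ATF4 arm, 1 of 24 genes was past the threshold. This was Hsp90b1, which encodes the chaperone GRP94, lower at -0.41 (SE 0.082, mean count 9357, adjusted p = 1.41e-05 in the DESeq2 Wald test), and the median of the list was -0.12. No gene of that list was higher past the threshold.

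Of 22 genes of mTORC1 and its regulators, the growth kinase that SESN2 and DDIT4 restrain, 1 was higher, 6 lower and 15 not past the threshold, with a median of -0.20. Wdr24, of the GATOR2 complex, which promotes mTORC1 activity when amino acids are present, was higher at 0.77 (SE 0.13, mean count 827). Nprl3, of the opposing GATOR1 complex, was lower at -0.80 (SE 0.14, mean count 260). The kinase gene Mtor was lower at -0.40 (SE 0.090) and Rps6kb1, which encodes its substrate S6K1, at -0.39 (SE 0.085).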
